A study of Homo sapiens with 14 samples.

Results

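The mRNA of the MDA-MB-231 line, which was established from a human breast cancer and is of the basal B type, was compared between a shorter and a longer labelled exposure to RBI2. Of the 14 libraries of the study, 4 were used for this comparison, 2 replicates labelled 10 min and 2 labelled 30 min, chosen by their sample labels. All 4 came from cells that were kept overnight in culture and then given 5 µM RBI2, a small molecule that interferes with ribosome biogenesis. No untreated library entered, so that every difference is between 2 labelled times of the same compound. The other treated libraries, RBI2 labelled 120 min and 5 µM CX-5461 (an inhibitor of RNA polymerase I transcription) labelled 10, 30 and 120 min, with 2 replicates each, served to estimate the spread between replicates and to show what the same labels did with another compound. The deposited names of these libraries carry the number 2 where the label gives 10 min, 10 where it gives 30 min and 30 where it gives 120 min, and the unit of these numbers is not given in the sources used here. Each time below is that of the label, and the order of the exposures cannot be told from the data.

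Ribosomes are assembled from rRNA that RNA polymerase I makes in the nucleolus and from proteins whose mRNAs RNA polymerase II makes. The libraries held poly(A)-selected RNA, and reads of the rDNA repeat had been taken out by the authors, so the values describe mostly mRNAs and long noncoding RNAs. Of the 15442 genes tested, 12622 were protein-coding and 2191 lncRNA genes. Genes of rRNA were few, with 1 rRNA gene, 1 rRNA pseudogene and 2 mitochondrial rRNA genes, none of which was called. Many of the genes named below encode short-lived regulatory mRNAs. The SMAD7, SKIL and ID genes are turned on by TGF-beta and BMP ligands through SMAD transcription factors and act back on that pathway, the dual-specificity phosphatases and Sprouty proteins restrain MAP kinase signaling, and KLF6, CSRNP1 and BHLHE40 are transcription regulators that respond quickly to many stimuli.

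The libraries labelled 10 min held 16412188 and 16198285 estimated reads, and those labelled 30 min held 21107808 and 14697988. Genes of the mitochondrial genome took 8.395% and 8.646% of the reads in the first group and 9.568% and 8.142% in the second, so that the groups overlapped. The label of the line was checked against marker genes. Of 9 markers of basal B lines, vimentin (VIM, 2430 to 2690 TPM over the 4 libraries) and CD44 (472 to 559 TPM) were the highest. Of 10 luminal markers, 7 were under 1 TPM in all 4 libraries, among them ESR1 and FOXA1, and PGR was at 0, while KRT18 (403 to 458 TPM), EPCAM (13.1 to 17.9 TPM) and GATA3 (1.92 to 2.88 TPM) were not. All 7 leukocyte markers and 6 of 7 melanocyte markers were under 1 TPM, with TYR and S100B at 0, and MITF was the exception at 2.33 to 2.89 TPM. The summed markers lay between 4020 and 4330 TPM for the basal B list, 420 and 475 TPM for the luminal list, 2.79 and 3.6 TPM for melanocytes and 0 and 0.704 TPM for leukocytes. In such bulk libraries fewer cells of a kind and less RNA per cell cannot be told apart.

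The 2 labels differed by little more than the replicates did. Over the 15442 genes tested, the root mean square difference in log2 CPM was 0.4808 between the replicates labelled 10 min, 0.4464 between those labelled 30 min and between 0.4979 and 0.5187 for the 4 pairs across labels. For the 10581 genes with a mean of at least 5 CPM these distances were 0.247, 0.2181 and between 0.2814 and 0.3043. The number of genes over 2-fold apart was 536 and 476 within the labels and between 569 and 636 across them.

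By the quasi-likelihood test of edgeR, 250 genes were called at a Benjamini-Hochberg adjusted p under 0.05, which is 1.62% of those tested. Of these, 135 (0.874%) were higher and 115 (0.745%) were lower in the libraries labelled 10 min than in those labelled 30 min. The differences were small, with a median absolute log2 fold change of 0.50 over the 246 genes that had reads in both groups and a lowest of 0.24. With the limit of 2-fold that the study uses, 25 genes (0.162%) were called, 13 (0.0842%) higher and 12 (0.0777%) lower. The values of the 2 groups did not overlap for any of the 250 genes, as was also true of 8645 genes (56%) of all those tested. At an unadjusted p under 0.05 there were 2682 genes (17.4%). Nothing in the labels says that the replicates came from separate cultures, so p-values measure the spread between these libraries, which may be technical. The number of calls depended on each of several libraries. Without RBI2 labelled 10 min replicate 1 or replicate 2 it was 39 and 74, and without RBI2 labelled 30 min replicate 1 or replicate 2 it was 39 and 48. It was 127 and 121 without CX-5461 labelled 10 min replicate 1 or replicate 2, 516 and 519 without those labelled 30 min, and 149 and 151 without RBI2 labelled 120 min replicate 1 or replicate 2. The 25 genes past the 2-fold limit became 16 and 16 without either replicate of RBI2 labelled 10 min, and 14 and 16 without replicate 1 or replicate 2 of RBI2 labelled 30 min. In every one of these fits all 250 genes kept their direction. In each of 23 alternative fits, 20 genes (16 higher and 4 lower) were called, among them SMAD7, SKIL, ID2, BHLHE40, HES1, CYP1B1, NUAK1, DUSP1, GADD45B, TIPARP and SRSF6 on the higher side and KLF6, SPRY1 and IGHV3-15 on the lower.

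**Figure D1:**
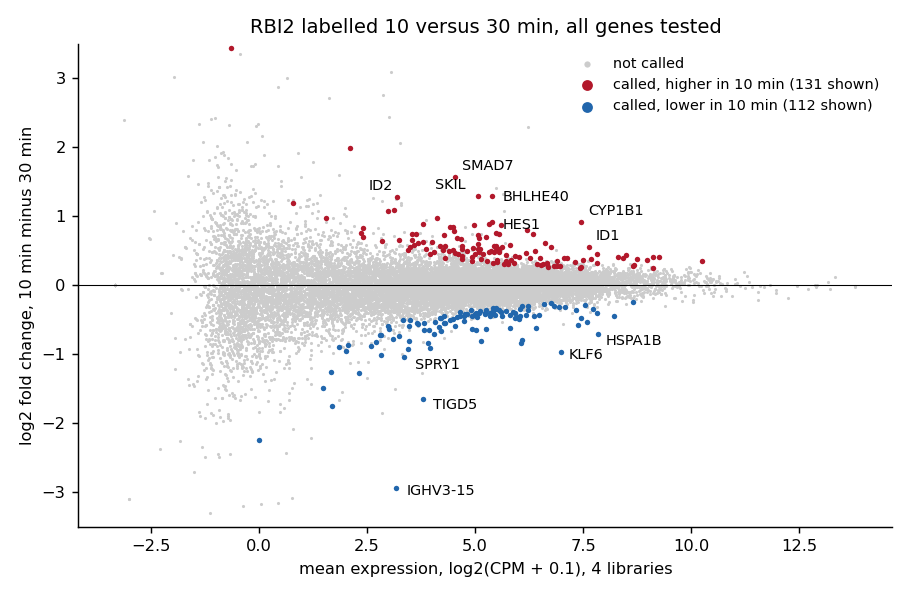
Each point is 1 of the 15442 genes tested, with the mean expression over the 4 libraries (log2 of CPM plus a small constant) on the x axis and the log2 fold change, 10 min minus 30 min, on the y axis, and red and blue points are called genes. Of the 250 called genes 243 lie within the range drawn and 7 lie past it, most called genes sit within 1 log2 unit of no difference, and SMAD7 (1.57) and IGHV3-15 (-2.94) are among those far from it.

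Inhibitors and targets of the TGF-beta and BMP pathway were among the genes highest in the libraries labelled 10 min relative to those labelled 30 min. Of the 20 listed genes of this pathway that were tested, 6 (30%) were called, beside 1.62% of all genes, with 5 higher in the libraries labelled 10 min (SMAD7, SKIL, ID2, ID3 and ID1) and 1 lower (BMP4). SMAD7 encodes the inhibitory SMAD that blocks TGF-beta receptor signaling. It had 36.0 and 33.0 CPM in the 2 libraries labelled 10 min and 11.8 and 11.4 CPM in those labelled 30 min, a log2 fold change of 1.57 (standard error, SE, 0.11, adjusted p = 1.4e-05). SKIL, which encodes the SMAD corepressor SnoN, had 46.2 and 48.8 CPM against 18.01 and 20.8 CPM, a log2 fold change of 1.299 (SE 0.12, adjusted p = 0.00013). For both genes the groups stood far apart, and the libraries labelled 120 min (SMAD7, 13.9 and 13.8 CPM, and SKIL, 15.2 and 15.7 CPM) lay close to those labelled 30 min.

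The ID genes encode helix-loop-helix proteins that lack a DNA-binding region and hold basic helix-loop-helix factors away from DNA. ID2 had 12.8 and 12.8 CPM against 4.89 and 5.76 CPM, a log2 fold change of 1.27 (SE 0.11, adjusted p = 0.00013). ID3 had 120 and 117 CPM against 79.0 and 75.6 CPM (log2 fold change 0.61, adjusted p = 0.0053), and ID1 had 238 and 231 CPM against 154 and 164 CPM (log2 fold change 0.56, adjusted p = 0.0068). The 3 genes differed in the same direction without overlap, as did all 250 called genes in their own directions. ID2 differed by the largest factor of the 3. The ligand gene BMP4 went the other way, with 31.7 and 32.4 CPM against 42.4 and 43.4 CPM (log2 fold change -0.42, adjusted p = 0.021). The median log2 fold change of the list was 0.17, beside 0.01 over all genes tested, and it stayed between 0.06 and 0.26 in all alternative fits. Of the 20 genes 13 were above 0 and 7 below. Among the members that did not pass, SMAD6 (log2 fold change 0.58, adjusted p = 0.163) and SMURF1 (0.34, adjusted p = 0.0685) were above 0 and TGFB1 (-0.15, adjusted p = 0.322) and SKI (-0.08, adjusted p = 0.593) below it. SMAD7, SKIL and ID2 were called without any one of the 12 libraries. ID1, ID3 and BMP4 were not, with adjusted p between 0.0543 and 0.197: ID1 and ID3 lost their calls without RBI2 labelled 10 min replicate 1 or either replicate of RBI2 labelled 30 min, and BMP4 without any of the 4 RBI2 libraries compared or CX-5461 labelled 10 min replicate 1.

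SMAD proteins bind the short SMAD box, CAGAC or its reverse complement GTCTG, and the 250 bases upstream of the annotated starts of these genes were read for those letters on both strands. The windows of the 3 genes of the list that were called higher and hold the letters are shown 5′ to 3′ in the direction of the gene, from RefSeq on GRCh38.p14, with matches in capitals. SMAD7 (chr18:48950966-48951215, minus strand) holds 2, whose first bases lie 217 and 128 bases before the start, ID3 (chr1:23559502-23559751, minus strand) holds 1 at 147 bases and SKIL (chr3:170357465-170357714, plus strand) holds 1 at 107 bases.
SMAD7: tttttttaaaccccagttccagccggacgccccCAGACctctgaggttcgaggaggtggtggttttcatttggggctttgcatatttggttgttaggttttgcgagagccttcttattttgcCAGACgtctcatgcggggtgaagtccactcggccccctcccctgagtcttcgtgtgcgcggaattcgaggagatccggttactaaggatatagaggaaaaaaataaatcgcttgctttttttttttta
ID3: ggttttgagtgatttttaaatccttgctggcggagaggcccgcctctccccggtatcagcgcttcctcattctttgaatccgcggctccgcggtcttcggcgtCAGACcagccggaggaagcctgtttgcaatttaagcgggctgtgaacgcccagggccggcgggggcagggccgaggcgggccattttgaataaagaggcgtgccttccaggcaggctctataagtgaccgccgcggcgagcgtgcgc
SKIL: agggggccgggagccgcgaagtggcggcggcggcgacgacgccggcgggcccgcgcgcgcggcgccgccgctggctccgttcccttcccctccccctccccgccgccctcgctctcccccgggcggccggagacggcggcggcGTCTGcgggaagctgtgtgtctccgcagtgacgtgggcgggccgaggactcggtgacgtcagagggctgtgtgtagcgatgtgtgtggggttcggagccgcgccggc
The windows of ID1 and ID2 hold none of these letters, and that of BMP4, the member of the list called lower, holds 1 match. The letters were common in all sets, in 35.8% of the 10975 windows of tested genes, in 40 of 105 windows (38.1%) of genes called higher and in 37 of 93 windows (39.8%) of genes called lower. Of 11 motifs searched in this way, the TATA box (TATAAA) was in 5.35% of all windows, 11.4% of those of genes called higher and 7.53% of those of genes called lower, and the RBPJ core (TGGGAA) was in 19.3%, 23.8% and 12.9%. These shares describe letters in the windows, and no test was made of them.

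The 15 largest differences toward the label 10 min that met the rule for named genes were log2 fold changes of 0.87 or more, and 4 transcription regulators among them are given first. BHLHE40 (chr3:4979437-4985323), a repressor that takes part in the circadian clock, had 59.0 and 59.7 CPM against 22.9 and 25.4 CPM, a log2 fold change of 1.302 (SE 0.09, adjusted p = 1.4e-05). Of 15 tested clock genes edgeR called this 1 (6.67%, beside 0.874% of all genes). DESeq2 called 2 of them higher, beside 120 of all 15442 genes. HES1 (chr3:194136148-194138732), a repressor best known as a target of Notch, had 53.6 and 55.6 CPM against 29.9 and 27.5 CPM (log2 fold change 0.92, adjusted p = 0.00021), and was the 1 gene called of 16 tested on the Notch list (6.25%). SNAI2, a repressor of epithelial genes, had 23.8 and 21.99 CPM against 11.8 and 11.4 CPM (log2 fold change 0.98, adjusted p = 0.00055). CSRNP1, a nuclear protein induced by AXIN1, had 40.2 and 40.7 CPM against 22.9 and 21.2 CPM (log2 fold change 0.87, adjusted p = 0.00059). The rule for named genes required both libraries of a group to lie above both of the other. In each of these genes the groups also differed by more than the replicates did, and no one library decided the call. With all 14 libraries in the fit, SNAI2 and CSRNP1 lost their calls, while BHLHE40 and HES1 did not.

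Genes with other roles were also among these differences. CYP1B1 (chr2:38066973-38109902), a cytochrome P450 that is a target of the aryl hydrocarbon receptor, had 232 and 222 CPM against 120 and 120 CPM (log2 fold change 0.92, standard error 0.09, adjusted p = 0.00021). TIPARP, another target of that receptor, had 96.6 and 89.5 CPM against 52.0 and 55.0 CPM (log2 fold change 0.80, adjusted p = 0.0013). The zinc exporter gene SLC30A1 (65.2 and 59.2 CPM against 34.0 and 33.6 CPM, log2 fold change 0.88) and the kinase gene NUAK1 (48.2 and 55.8 CPM against 27.9 and 28.1 CPM, log2 fold change 0.89) were called without any one library. SOCS3, which encodes a feedback inhibitor of cytokine receptors, had 102 and 99.5 CPM against 58.8 and 61.4 CPM (log2 fold change 0.75, adjusted p = 6.0e-05), and GADD45B, a stress-induced gene, had 56.2 and 55.9 CPM against 32.6 and 33.7 CPM (log2 fold change 0.76, adjusted p = 0.00021). The calls of ZKSCAN2, VGLL3, KCNJ14 and SULT1A3 were lost without some libraries, with adjusted p between 0.0533 and 0.277 in those fits. ZKSCAN2, VGLL3 and KCNJ14 lost them without any of the 4 libraries compared, and SULT1A3 without 9 of the 12 libraries, the exceptions being RBI2 labelled 30 min replicate 1 and both replicates of CX-5461 labelled 120 min. SULT1A3 also shares sequence with near-identical copies and overlaps another gene on its strand, so its value is uncertain. KCNJ14 overlaps GRWD1 on its strand. With all 14 libraries in the fit SOCS3, ZKSCAN2, VGLL3, KCNJ14 and SULT1A3 lost their calls.

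A pseudogene of IKBKG stood apart in that it had no reads in 1 of the groups. IKBKGP1 had 101 and 84 reads in the libraries labelled 10 min, 0 and 0 in those labelled 30 min and 97 and 77 in those labelled 120 min. With a floor of 3 reads over the group without any, it was at least 68.7-fold higher in the libraries labelled 10 min. The lncRNA gene ENSG00000258964 (110 and 118 reads, at least 84.67-fold) and the pseudogene EIF4BP6 (21 and 16 reads, at least 13.74-fold) likewise had no reads in the libraries labelled 30 min, and ENSG00000270154 had 14 and 8 reads in these and none in those labelled 10 min (at least 6.582-fold). The last 3 were chosen after their values were seen. Pseudogenes can share reads with their parent genes, and how Salmon divided such reads may affect these values, which was not tested. With CX-5461, IKBKGP1 had 2.37 and 3.49 CPM under the label 10 min and 2.64 and 5.31 CPM under the label 30 min.

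**Figure D2:**
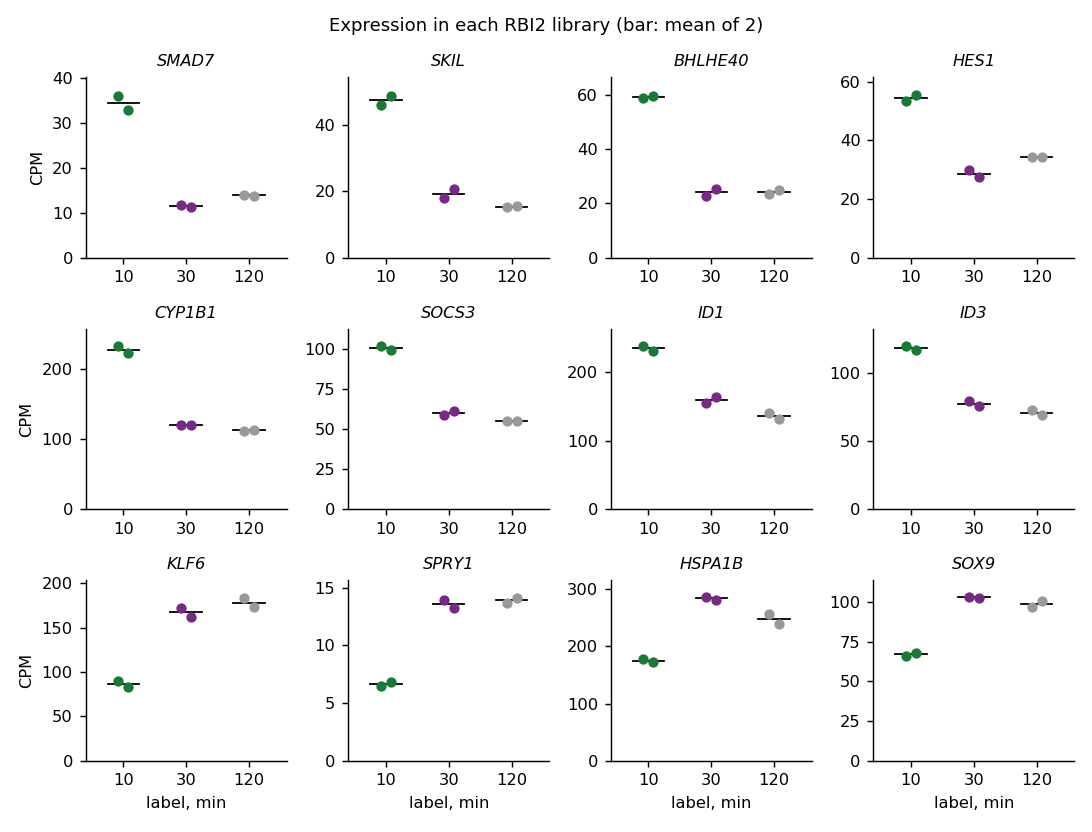
Expression in CPM of 12 genes in each RBI2 library (points) with the mean of 2 replicates (bars), by the labelled time in minutes on the x axis, each y axis starting at 0. In all 12 genes the 2 libraries labelled 10 min stand apart from the 4 others, above them for SMAD7, SKIL, BHLHE40, HES1, CYP1B1, SOCS3, ID1 and ID3 and below them for KLF6, SPRY1, HSPA1B and SOX9.

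The libraries labelled 120 min entered the estimate of the spread but not the contrast between the other labels. Of the 250 genes, 229 (91.6%) had a mean of the libraries labelled 120 min that was nearer to the mean of those labelled 30 min than to that of those labelled 10 min on the log2 scale, beside 66.6% of all genes tested. The share was 88.1% of the genes called higher and 95.7% of those called lower. Since genes were chosen for their difference between the labels 10 and 30 min, these shares are a description and were not tested.

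On the lower side, the largest difference with enough reads was that of IGHV3-15 (chr14:106153624-106154163), an immunoglobulin heavy chain variable segment. It had 1.97 and 2.12 CPM in the libraries labelled 10 min and 15.2 and 16.2 CPM in those labelled 30 min, a log2 fold change of -2.94 (SE 0.14, adjusted p = 7.1e-07). No leukocyte marker of the list passed 1 TPM in any of the 4 libraries, and what was counted under this gene was not tested further. KLF6 (chr10:3775996-3785281), a zinc finger transcription factor of the immediate early class, had 89.4 and 82.7 CPM against 173 and 162 CPM, a log2 fold change of -0.96 (SE 0.07, adjusted p = 3.8e-05). TIGD5, a gene derived from a transposase, had 6.51 and 6.75 CPM against 20.9 and 20.5 CPM (log2 fold change -1.64, adjusted p = 1.4e-05). No overlap between the groups was a condition for naming these 3 genes, and it held for 56% of all genes tested. All 3 were called without any one library, as were SPRY1, NAGS, CAPN15 and SNAPC4. NAGS, the enzyme that makes N-acetylglutamate for the urea cycle, had 11.2 and 10.3 CPM against 19.7 and 20.6 CPM. CAPN15, a calpain, had 49.0 and 47.2 CPM against 84.4 and 87.0 CPM. SNAPC4, a subunit of the complex that starts snRNA transcription, had 23.3 and 27.7 CPM against 43.0 and 45.8 CPM. With all 14 libraries in the fit TIGD5, NAGS and CAPN15 lost their calls, as did SNAPC4 with an offset for transcript length. The other 8 of the 15 genes with the largest differences toward the label 30 min, LIN37, NR6A1, ZNHIT2, ZFPM1, MIR17HG, NOL3, ZNF500 and HSPA1A, lost their calls without at least 1 of the 4 libraries compared, MIR17HG and ZNF500 also without libraries of other groups, with adjusted p between 0.0509 and 0.335. LIN37 overlaps another gene on its strand.

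Genes that restrain MAP kinase signaling differed in both directions. Of 17 tested, 2 were called higher and 2 lower in the libraries labelled 10 min (23.5%, beside 1.62% of all genes), with a median log2 fold change of -0.05. DUSP1, a phosphatase of MAP kinases, had 58.9 and 58.7 CPM against 34.2 and 36.3 CPM (log2 fold change 0.74, standard error 0.07, adjusted p = 0.00025). SPRY1, a Sprouty protein that restrains receptor tyrosine kinase signaling, had 6.45 and 6.81 CPM against 13.9 and 13.2 CPM (log2 fold change -1.03, adjusted p = 0.00025). Its relative SPRY4 went the other way (81.9 and 92.3 CPM against 65.7 and 66.1 CPM, log2 fold change 0.40, adjusted p = 0.0353), and SPRED3 was lower (12.6 and 15.9 CPM against 22.9 and 22.04 CPM, log2 fold change -0.66, adjusted p = 0.0115). DUSP1 and SPRY1 kept their calls without any one library. SPRY4 lost its call without 8 of the 12 libraries (any of the 4 compared, CX-5461 labelled 10 min or RBI2 labelled 120 min) and SPRED3 without RBI2 labelled 10 min replicate 1 or either replicate of RBI2 labelled 30 min, with adjusted p between 0.0529 and 0.26.

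The mRNAs of immediate early genes appear and decay quickly. Of 28 tested, CSRNP1 and KLF10 were called higher and KLF6 lower (10.7%, beside 1.62% of all genes). The median log2 fold change was 0.09 with members between -0.96 and 1.02, and at an unadjusted p under 0.05 there were 8 higher and 6 lower, beside 17.4% of all genes. KLF10, a target of TGF-beta, had 94.3 and 103 CPM against 67.3 and 71.8 CPM (log2 fold change 0.50, adjusted p = 0.0106), which was lost without any of the 4 libraries compared (adjusted p between 0.0635 and 0.167). FOS (log2 fold change 0.58, adjusted p = 0.0948), EGR1 (0.40, adjusted p = 0.112), JUN (-0.13, adjusted p = 0.281) and MYC (0.09, adjusted p = 0.462) did not pass. MYC had 167 and 167 CPM against 156 and 157 CPM.

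Of the genes that NF-kB turns on, 2 of 19 tested (10.5%, beside 0.745% of all genes) were called lower in the libraries labelled 10 min by edgeR and none higher. DESeq2 called 1 higher and 1 lower, beside 120 and 81 of all 15442 genes. BIRC3, an inhibitor of apoptosis, had 29.7 and 29.6 CPM against 44.1 and 48.3 CPM (log2 fold change -0.64, adjusted p = 0.0013). NFKBIA, which encodes the inhibitor that retains NF-kB in the cytoplasm, had 29.7 and 25.7 CPM against 36.5 and 36.8 CPM (log2 fold change -0.40, adjusted p = 0.0431), and this call was lost without 8 of the 12 libraries (any of the 4 compared, CX-5461 labelled 10 min or RBI2 labelled 120 min, adjusted p between 0.0682 and 0.298). Both calls were lost with an offset for transcript length and with all 14 libraries. Of the 19 genes 13 were below 0, with a median of -0.25, which was -0.12 after correcting for length and GC content.

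Of the 16 tested heat shock genes, the 2 that were called (12.5%, beside 0.745% of all genes called lower), HSPA1A and HSPA1B, are neighbours that encode nearly the same HSP70 protein and share reads. HSPA1B had 178 and 172 CPM against 287 and 282 CPM (log2 fold change -0.70, standard error 0.06, adjusted p = 0.00013), and it overlaps another gene on its strand. HSPA1A had 48.8 and 49.8 CPM against 85.7 and 84.4 CPM (log2 fold change -0.79, adjusted p = 0.0066), and its call was lost without any of the 4 libraries compared, with adjusted p between 0.0647 and 0.106. DNAJB1, the J-domain partner of HSP70, was at -0.05 (adjusted p = 0.708), and the median of the list was -0.03.

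Of 16 tested splicing factors of the SR family and kinases that phosphorylate them, 5 were called higher in the libraries labelled 10 min and none lower by edgeR, beside 0.874% of all genes called higher. The median log2 fold change of the list was 0.19, which became 0.11 after correcting for length and GC content, and 3 members were below 0. SRSF6 had 360 and 360 CPM against 269 and 270 CPM, a log2 fold change of 0.42 (SE 0.05, adjusted p = 0.00089). The kinase gene CLK1 had 55.0 and 48.2 CPM against 36.0 and 33.6 CPM (log2 fold change 0.57, adjusted p = 0.0039). SRSF5 (log2 fold change 0.34), SRSF2 (0.29) and SRSF7 (0.26) were the other 3 genes called. With an offset for transcript length and with all 14 libraries, CLK1, SRSF5, SRSF2 and SRSF7 lost their calls. SRSF7 lost its call in 7 of the 11 alternatives other than those without 1 library. SRSF6 alone was called without any one library, and the others lost their calls without RBI2 labelled 10 min replicate 1, RBI2 labelled 30 min replicate 2 or further libraries, 8 of the 12 in all, with adjusted p between 0.0559 and 0.368. These genes make transcripts that are spliced into forms that are quickly degraded, and the sums per gene do not separate such forms.

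Of 20 tested genes of cholesterol synthesis and uptake, 5 (25%, beside 0.874% of all genes) were called higher by edgeR and none lower. INSIG1, which holds back the sterol sensor and is itself turned on by SREBP, had 59.6 and 56.8 CPM against 38.6 and 41.1 CPM (log2 fold change 0.55, adjusted p = 0.0039). HMGCS1, an early enzyme of the pathway, had 49.2 and 47.1 CPM against 32.4 and 35.9 CPM (log2 fold change 0.50, adjusted p = 0.0303), and STARD4 (0.51) and IDI1 (0.31) were among the other genes called. The median of the list was 0.06. All 5 calls were lost without 1 or more libraries, 8 of the 12 in all (the 4 compared, CX-5461 labelled 10 min and RBI2 labelled 120 min), with adjusted p between 0.0501 and 0.315. Of 15 tested YAP targets, 3 (20%) were called higher, AMOTL2 (256 and 266 CPM against 183 and 197 CPM, log2 fold change 0.46), ANKRD1 (571 and 567 CPM against 452 and 432 CPM, 0.37) and LATS2 (54.8 and 55.0 CPM against 38.6 and 37.9 CPM, 0.52), and CCN1 (-0.19, adjusted p = 0.0991) and CCN2 (0.12, adjusted p = 0.275) were not called by edgeR. DESeq2 called 3 YAP targets higher and 2 lower, beside 120 and 81 of all 15442 genes. CCN1 was among the 2 called lower (DESeq2 adjusted p = 0.0167). After correcting for length and GC content edgeR also called CCN1 lower (adjusted p = 0.0114). With an offset for transcript length AMOTL2, ANKRD1 and LATS2 all lost their calls. ANKRD1 and LATS2 also lost them with all 14 libraries, and LATS2 with the replicate block. These 3 calls were also lost without some of the same 8 libraries, with adjusted p between 0.0513 and 0.246.

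The gene groups nearest to the reported action of RBI2 were read against the 1.62% of all genes called, a share at which lists of this size hold few calls or none. None of 25 genes of the Pol I machinery (median log2 fold change 0.01), of 22 genes of the TRAMP complex and nuclear exosome (0.05) or of 26 genes of poly(A) tail binding and mRNA decay (0.04) was called by edgeR at an adjusted p under 0.05. At an unadjusted p under 0.05 there were 9, 7 and 2 genes in these lists, beside 17.4% of all genes. DESeq2 called 1, 0 and 1, beside 201 of all 15442 genes. After correcting for length and GC content edgeR called 1, 2 and 1, beside 405 of all 15442 genes. Of 49 ribosome biogenesis factors, RRS1 (2.04% of the list) was called, lower by a log2 fold change of -0.29 (adjusted p = 0.0378), a call that was lost without any of the 4 libraries compared or either replicate of CX-5461 labelled 10 min or RBI2 labelled 120 min (adjusted p between 0.0668 and 0.345). Of 84 cytosolic ribosomal protein genes, 75 were above 0, beside 7895 of all 15442 genes, and 4 (4.76%, beside 0.874% of all genes) were called higher, with a median of 0.10 that stayed between 0.10 and 0.13 in all alternative fits. The 4 genes called were RPS15A (414 and 417 CPM against 298 and 317 CPM, log2 fold change 0.43), RPL27 (0.42), RPL9 (0.40) and RPS3A (0.35). None of the 4 calls was made without RBI2 labelled 30 min replicate 1 or without either replicate of the label 10 min. RPL9 and RPS3A also lost theirs without RBI2 labelled 30 min replicate 2, and RPS3A without either replicate of CX-5461 labelled 10 min (adjusted p between 0.0512 and 0.302 over the 4 genes). With their many processed pseudogenes these genes are ones for which reads are divided between copies. After correcting for length and GC content, 12 of the 84 were called higher, beside 280 of all 15442 genes in that fit. RRS1, RPL27, RPL9, RPS15A and RPS3A were named after their values were seen. The genes that the study names, PABPC1 (1391 and 1334 CPM against 1287 and 1248 CPM, log2 fold change 0.10, adjusted p = 0.421), ATXN2 (-0.08, adjusted p = 0.629) and the reference gene GAPDH (-0.02, adjusted p = 0.936), were not called. ATXN2 and GAPDH were above 0 in some of the other fits.

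**Figure D3:**
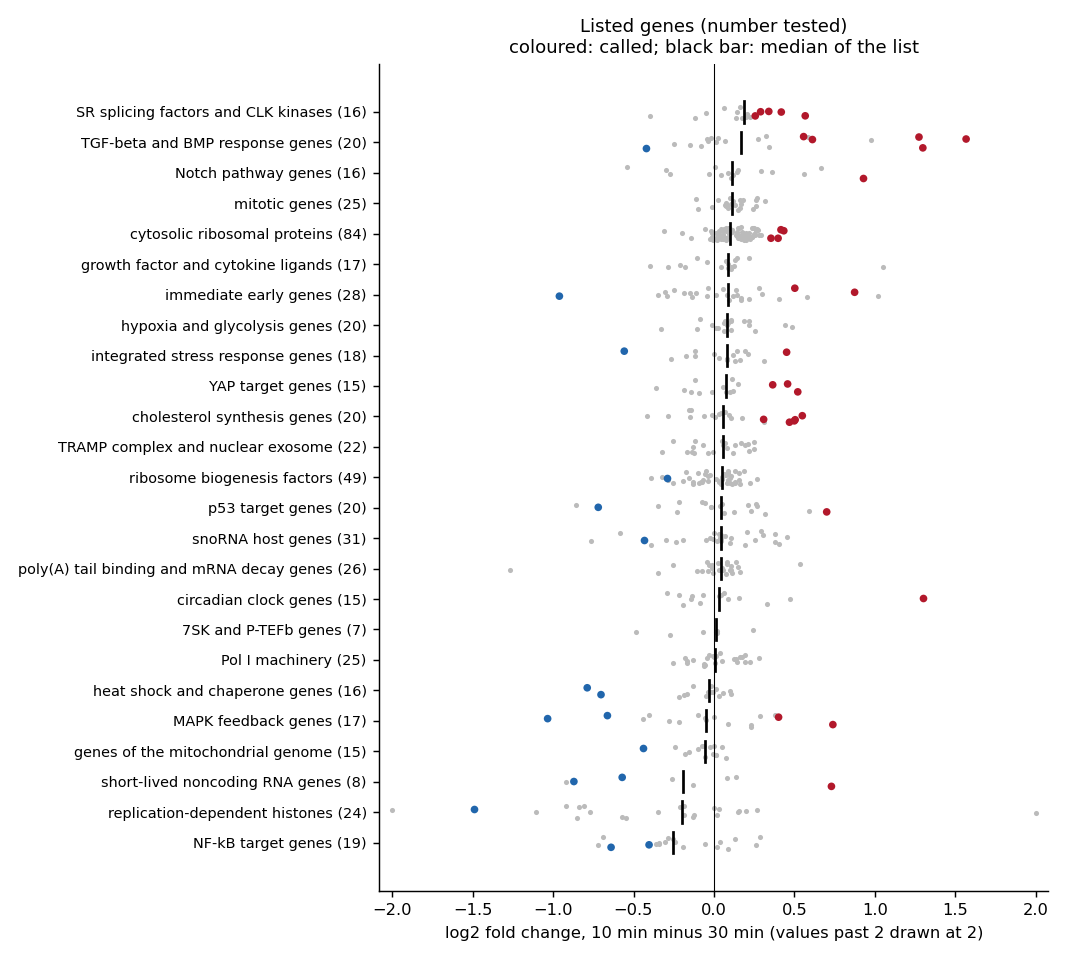
The log2 fold change, 10 min minus 30 min, of each tested member (points) of 25 gene lists (numbered zinc finger genes are not drawn), with called genes in red (higher) or blue (lower) and the median of the list as a black bar, ordered by that median. Of the lists drawn, those with most calls in 1 direction are the SR splicing factors and CLK kinases, the TGF-beta and BMP response genes and the cholesterol synthesis genes (5 each), and the bars of most lists lie close to no difference. Values past 2 are drawn at 2.

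Of 426 numbered zinc finger genes 6 were called higher and 3 lower (2.11%, beside 1.62% of all genes). Apart from that of ZNF114, named after its values were seen, these calls were lost without any of the 4 libraries compared. After correcting for length and GC content 17 were called higher and 4 lower, beside 280 and 125 of all 15442 genes. Further lists held between 1 and 3 calls. Of 18 genes of the integrated stress response, HERPUD1 was higher (log2 fold change 0.45) and DDIT4 lower (-0.56), and of 20 p53 targets SESN1 was higher (0.70) and PLK3 lower (-0.72). PLK3 lost its call with DESeq2, the length offset and all 14 libraries, and it lay between -0.86 and -0.19 over all fits. SESN1 lost its call in the same fits, with DESeq2's size factors and with the replicate block with or without correction for length and GC content. HERPUD1 and DDIT4 lost theirs with the length offset and all 14 libraries, and DDIT4 also with DESeq2. The calls of HERPUD1 and DDIT4 were lost without any of the 4 libraries compared (adjusted p between 0.0824 and 0.224), that of PLK3 without RBI2 labelled 10 min replicate 1 or either replicate of RBI2 labelled 30 min, and that of SESN1 without any library but those of CX-5461 labelled 30 min (adjusted p between 0.0553 and 0.32 for both genes). Of the 8 tested short-lived noncoding RNA genes, MIR22HG was higher (40.9 and 42.3 CPM against 23.2 and 27.1 CPM, log2 fold change 0.73, adjusted p = 0.00076) and NEAT1, which builds the paraspeckle, was lower (128 and 138 CPM against 196 and 199 CPM, -0.57, adjusted p = 0.0181), as was MIR17HG (-0.87). MIR22HG kept its call without any one library, NEAT1 lost it without any of the 4 compared, and MIR17HG without any but those of CX-5461 labelled 30 min (adjusted p between 0.0509 and 0.335). Among the 15 genes of the mitochondrial genome MT-ND6, the only protein gene on the light strand, was lower (241 and 260 CPM against 357 and 322 CPM, -0.44), a call that was lost without any of the 4 libraries compared (adjusted p between 0.0637 and 0.255). Of 24 histone genes and 31 snoRNA host genes, H1-4 (-1.49) and SNHG4 (-0.44) were lower, both named after their values were seen. SNHG4 was at -0.28 without RBI2 labelled 10 min replicate 1 and at -0.62 without replicate 2. H1-4 lost its call without any of the 4 libraries compared (adjusted p between 0.0612 and 0.222). SNHG4 lost it without RBI2 labelled 10 min replicate 1, either replicate of RBI2 labelled 30 min or 120 min, or either of CX-5461 labelled 10 min (adjusted p between 0.0727 and 0.323). DKK1, a secreted Wnt antagonist (156 and 156 CPM against 230 and 220 CPM, -0.53, adjusted p = 0.00051), and SOX9, a transcription factor of chondrocytes and stem cells (65.7 and 68.1 CPM against 103 and 103 CPM, -0.62, adjusted p = 0.0017), were lower and were also chosen after the values were seen. SOX9 lost its call without RBI2 labelled 10 min replicate 1 and DKK1 kept it without any one library. Lists without a call in the comparison as fitted were those of mitosis (25 genes, of which 22 were above 0), hypoxia and glycolysis (20), growth factors and cytokines (17) and P-TEFb (7). At an unadjusted p under 0.05 these held 7, 3, 2 and 2 genes, beside 17.4% of all genes. DESeq2 called 1 mitotic gene and none in the other 3 lists, beside 201 of all 15442 genes. After correcting for length and GC content edgeR called 1, 3, 1 and 0, beside 405 of all 15442 genes.

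The same labels were compared in CX-5461 to ask whether the genes above followed the label with either compound. With CX-5461, 829 genes (5.37%) were called between the labels 10 and 30 min, 323 higher (2.09%) and 506 lower (3.28%). Of the 250 genes called with RBI2, 186 (74.4%) had a fold change of the same sign with CX-5461, beside 62% of all genes tested. There were 94 genes called with both compounds, 37.6% of those called with RBI2 and 11.3% of those called with CX-5461, of which 75 went the same way and 19 the opposite way. The 2 comparisons use separate libraries. A test of the difference between them (RBI2 minus CX-5461) called 299 genes (1.94%), of which 196 (1.27%) were above 0 and 103 (0.667%) below, and 62 of these were among the 250. Of these 62, 43 had fold changes of opposite sign with the 2 compounds, whether or not that of CX-5461 was called. The 62 were chosen for a difference between the compounds, which favours opposite signs, so this count is a description only. The 299 became 155 and 163 without replicate 1 or replicate 2 of CX-5461 labelled 10 min, 169 and 175 without those of RBI2 labelled 10 min, and 149 and 163 without those of RBI2 labelled 30 min.

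The ID genes are given first among those that differed between the compounds, ID1 and ID3 with opposite directions and ID2 with the same one. ID1, higher with RBI2 by 0.56, had 48.2 and 43.4 CPM with CX-5461 labelled 10 min and 162 and 194 CPM with CX-5461 labelled 30 min, a log2 fold change of -1.96, so that the compounds differed by 2.52 (SE 0.12, adjusted p = 2.0e-07). ID3 had 36.1 and 31.9 CPM against 80.2 and 95.9 CPM with CX-5461 (log2 fold change -1.37, difference 1.98, adjusted p = 3.2e-06). ID2 was higher under the label 10 min with both compounds and far more so with CX-5461, with 94.5 and 86.6 CPM against 6.85 and 6.62 CPM (log2 fold change 3.75, difference -2.47, adjusted p = 2.9e-06). For SMAD7, the CX-5461 libraries had 15.4 and 12.5 CPM against 11.9 and 11.1 CPM (log2 fold change 0.27, adjusted p = 0.23), and the compounds differed by 1.29 (SE 0.16, adjusted p = 0.00062). These 4 differences between the compounds were called without any one of the 12 libraries.

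Other genes were alike in direction. SKIL was higher under the label 10 min with CX-5461 too (28.9 and 28.8 CPM against 18.2 and 13.9 CPM, log2 fold change 0.85), and the difference between the compounds was 0.45 with an SE of 0.17 (adjusted p = 0.295). SPRY1 was lower with CX-5461 by a log2 fold change of -0.96 (difference -0.07, SE 0.15), and CSRNP1 was higher by 0.78 (difference 0.09, SE 0.14). KLF6 and IGHV3-15 were lower with both, KLF6 more so with CX-5461 (-2.01) and IGHV3-15 more so with RBI2 (-2.001 with CX-5461). The difference was called without any one library for KLF6. For IGHV3-15 it was lost without any of the 4 RBI2 libraries compared, either replicate of RBI2 labelled 120 min, or replicate 1 of CX-5461 labelled 10 or 30 min, and it lay between -1.09 and -0.76 over all fits. The call for IGHV3-15 was also lost with DESeq2, the length offset, the replicate block, only the libraries compared and all 14 libraries. CYP1B1 (103 and 105 CPM against 137 and 112 CPM), SOCS3 (47.2 and 49.6 CPM against 62.2 and 62.7 CPM), DUSP1 (23.9 and 25.7 CPM against 31.5 and 30.0 CPM) and CLK1 (28.8 and 28.1 CPM against 39.0 and 37.5 CPM) had lower means under the label 10 min with CX-5461 and higher ones with RBI2, and the differences between the compounds were 1.18, 1.12, 1.05 and 0.99. Of the 4, CYP1B1 was not called with CX-5461 itself (adjusted p = 0.132). MYC (adjusted p = 0.462 with RBI2) and CCN1 (adjusted p = 0.0991 with RBI2) were lower with CX-5461 by log2 fold changes of -2.24 and -2.91.

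**Figure D4:**
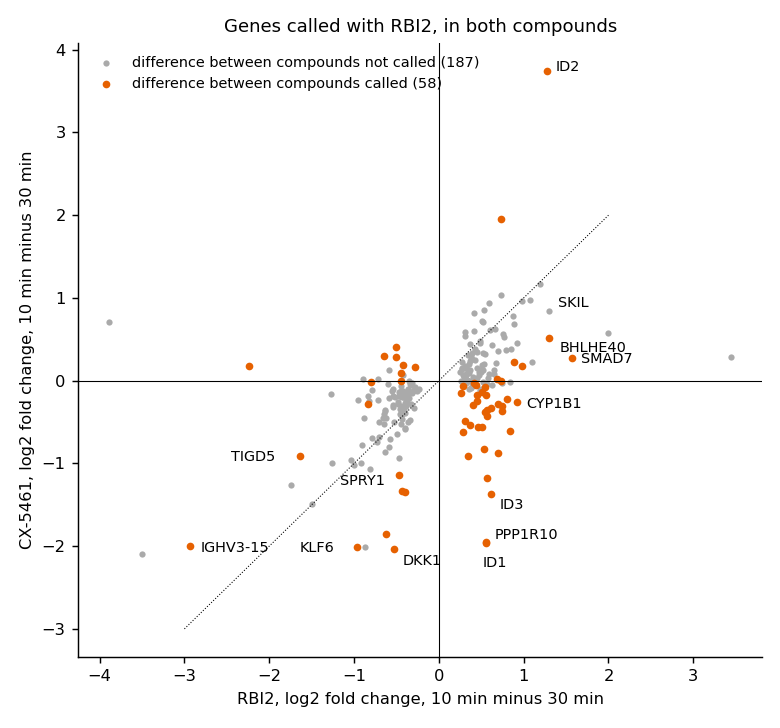
Genes called with RBI2, with the log2 fold change, 10 min minus 30 min, for RBI2 on the x axis and for CX-5461 on the y axis, orange where the test of the difference between the compounds was called and a dotted line where both are equal. Of the 250 genes, 245 lie within 4 log2 units and 58 of these are orange, with ID1, ID3 and PPP1R10 higher with RBI2 and lower with CX-5461, and ID2 (1.27 and 3.75) at the top.

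The direction of the difference moved with the base composition of the transcripts. The genes called higher had a median GC content of 43.5% over their transcripts, those called lower 60.2% and all genes tested 48.05%. The genes were split into 5 bins of equal size by GC content. In the bin with the lowest GC content, 41 were called higher and 3 lower, with a median log2 fold change of 0.12, and in the bin with the highest, 10 were called higher and 78 lower, with a median of -0.16. Median lengths were alike for the genes called higher (3253 bases) and lower (3286 bases), and longer than over all genes (2603 bases). After correcting for length and GC content, 405 genes were called in place of 250, and 280 of them (69.1%) were higher, against 54% without it. Of the 250 genes 186 were still called, and SMAD7, SKIL, ID2, BHLHE40, HES1, CYP1B1, KLF6, SPRY1 and SRSF6 were among them, while HSPA1A and SRSF7 were not. Of the biotypes, 12 of 2191 lncRNA genes (0.548%) were called, 3 higher and 9 lower, beside 231 of 12622 protein-coding genes (1.83%). The part of base composition in the difference was not tested beyond this correction.

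**Figure D5:**
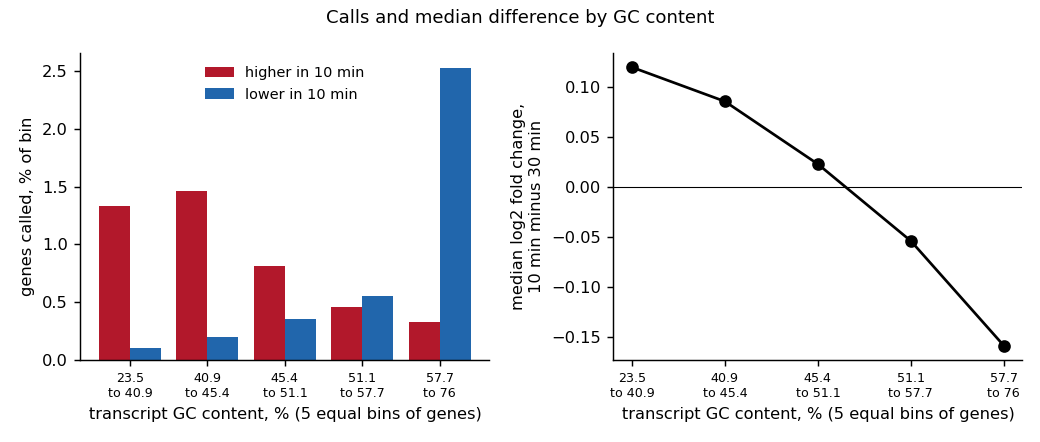
Left, the share of genes called higher (red) and lower (blue) in the libraries labelled 10 min, as a percent of each of 5 equal bins of genes by transcript GC content, and right, the median log2 fold change of the same bins. Calls go from mostly higher in the bin with the lowest GC content (1.33% against 0.0971%) to mostly lower in the bin with the highest (0.324% against 2.53%), and the median falls from 0.12 to -0.16.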

How the data were processed

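RNA-seq libraries (stranded, poly(A)-selected, Illumina HiSeq2000) were grouped by their sample labels. The authors removed reads that aligned to the rDNA repeat and quantified the rest on GRCh38 transcripts with Salmon 1.3.0, per the submitters' processing notes. The deposited values are estimated counts per transcript, as the authors' Salmon run gave them, neither normalized nor rounded. The authors also deposited TPM and transcript lengths. TPM was used for markers only. Here, estimated counts were summed per gene by transcript identifier (GENCODE 44, 225662 of 228754 transcripts matched, between 1.03% and 1.13% of reads left out) and rounded.

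Counts of the 12 treated libraries (6 groups) were fitted together with edgeR 4.0.16 in R 4.3.3 (TMM, filterByExpr with a minimum count of 10, robust quasi-likelihood), since 4 libraries alone leave few degrees of freedom, which gave a common coefficient of variation of 7.67%. Contrasts were RBI2 10 minus 30 min, and its difference from CX-5461. Calls used a Benjamini-Hochberg adjusted p under 0.05 over 15442 genes. On simulated counts for RBI2 10 versus 30 min, 14, 27, 39 and 39 of 50 genes changed by an absolute log2 fold change of 0.5, 0.75, 1 and 1.5 were recovered, with 10 false calls among 15153 genes tested. Distances used a prior count of 2.

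Members and lists were chosen with earlier results of these data known. Genes named are the 15 with the largest differences in each direction among called genes with at least 5 CPM in the higher group, both libraries of a group above both of the other, and a symbol; called members of lists of at most 30 symbols; PABPC1, ATXN2 and GAPDH; and the 5 largest differences between the compounds in each direction. Genes named after their values were seen, other than those marked in the text, are KLF10, SOCS3, GADD45B, TIPARP, MYC and CCN2. Listed genes that did not pass and are given as values were also chosen in this way. The floor of 3 reads covers counting error only. Some listed genes are not reported here by name.

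Alternatives were DESeq2 1.42.0, DESeq2's size factors, no filter, an unadjusted p, an offset for average transcript length, correction for length and GC content, a block for the replicate number with and without that correction, models of other sets of libraries, and leaving out 1 library at a time.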

Additional observations from a re-analysis of the deposited data

Results flagged for a closer look

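For 39 of the named genes the difference between the labels 10 and 30 min was not the same with RBI2 as with CX-5461 by edgeR's quasi-likelihood test of the difference between the compounds (adjusted p under 0.05 over all genes tested). The values below are those differences in log2 fold change, RBI2 minus CX-5461, over 8 libraries with 2 in each group.

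Above 0, 8 genes were called higher with RBI2 and lower with CX-5461, namely the BMP targets ID1 (2.521) and ID3 (1.984), the feedback genes DUSP1 (1.049) and SOCS3 (1.116), the YAP targets AMOTL2 (1.018) and ANKRD1 (0.90), the phosphatase subunit gene PPP1R10 (2.508) and the kinase gene CLK1 (0.9945). The genes called higher with RBI2 and not called with CX-5461 were SPRY4 (0.69), the aryl hydrocarbon receptor targets CYP1B1 (1.181) and TIPARP (1.024), SRSF2 (0.3549), SRSF6 (0.4437), SRSF7 (0.406), HERPUD1 (0.631), MIR22HG (0.7327) and RPS15A (0.4876). CCN2 (0.986), MYC (2.335) and INTS2 (4.736) were called lower with CX-5461 and not called with RBI2.

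SMAD7 (1.294), BHLHE40 (0.785), SNAI2 (0.8084) and SLC30A1 (0.6489) were called higher with RBI2, and of these BHLHE40 alone was called with CX-5461, also higher. KLF6 (1.049), DKK1 (1.501), NFKBIA (0.9385) and CCN1 (2.721) were called lower with CX-5461, and of these CCN1 alone was not called with RBI2. The value of IKBKGP1 (10.07) rests on a group of 2 libraries without reads and is no measure of size.

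Below 0, the difference was -2.473 for ID2 and -2.369 for FOSB, both called higher with CX-5461, and ID2 also with RBI2. It was -2.081 for MSRB1, -1.729 for TFEB, -1.688 for CBARP and -0.6037 for BMP4, of which TFEB and CBARP were called higher with CX-5461 and BMP4 lower with RBI2, and -0.9363 for IGHV3-15, -0.7876 for SNAPC4, -0.7348 for TIGD5 and -0.5499 for CAPN15, which were called lower with RBI2, and apart from SNAPC4 with CX-5461 too. Of the 39 differences, none changed sign in an alternative fit, 19 were called in every one and 15 lost their call without at least 1 library. Among these, MSRB1 lost it without 10 of the 12 libraries (-2.399 to -1.897) and INTS2 without 8 (3.173 to 5.496).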

How the results depend on the processing

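The number of genes called between the RBI2 labels 10 and 30 min was 250, and it depended on which libraries were modelled together. It was 1635 with only the 4 libraries compared, 1113 with the 6 RBI2 libraries and 30 with all 14, and the numbers past 2-fold were 64, 53 and 10 in place of 25. Leaving out each library in turn gave between 39 and 519 genes, between 14 and 32 past 2-fold, and between 149 and 333 for the difference between the compounds (299 with all). Without a filter on low counts these 3 numbers were 696, 77 and 519, and with an unadjusted p they were 2682, 173 and 1819. An offset for transcript length gave 60, 16 and 127, and correcting for length and GC content gave 405 and 495 for the first and the last. With all 14 libraries 125 genes differed between the compounds. The cause of these changes was not tested. None of the 250 genes went the opposite way in any alternative, with 3 not tested where only 4 libraries were used and 1 where the 6 RBI2 libraries were. The replicate block, in which the shared numbers of the labels were a term of the model, called 145 genes, of which 144 were among the 250, and with the correction for GC content 330. The deviations of same-numbered libraries of the groups compared had r = -0.0134 over all genes tested. Genes with few reads enter this value with equal weight, so it cannot decide whether the numbers mark a pairing.

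For the library distances, the ratio across labels to within them was 1.096, and 1.252 for genes with a mean of at least 5 CPM. GAPDH, not called in any fit, was at 0.02633 with the length offset, 0.07029 after correcting for length and GC content, 0.07026 with that correction and the block, and between -0.04723 and 0.017 when 1 library was left out, above 0 without RBI2 labelled 30 min replicate 1, and ATXN2 was at 0.0008149 with the length offset. With 2 libraries a label, simulated recovery was 14 of 50 genes at a log2 fold change of 0.5, so differences of that size could be missed. The part of depth was not tested.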
